A study of Mus musculus with 18 samples.

Results

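Expression of 10 receptor genes of myeloid cells was examined in mouse splenocytes: the C-type lectin genes Clec4d, Clec4e, Clec4n, Clec7a, Clec5a, Clec4a2, Clec12a and Clec10a, and the immunoglobulin-type receptor genes Trem1 and Cd300e. They were chosen by gene name among the 47729 reference genes listed for every library, and all 10 were among the 11457 protein-coding genes that passed the filter on low values. RNA came from spleens of C57BL/6J mice labelled as female and aged 4 to 6 weeks, in 18 libraries of 4 groups. LMA (n = 6) were mice given LPPC/MP and then LPPC/MP with an anti-CD28 antibody. LMS (n = 6) were mice given LPPC/MP and then LPPC/MP with an anti-CTLA4 antibody, which the labels name CD152. LM (n = 3) were mice given LPPC/MP alone, and N (n = 3) were naive mice. LPPC is a liposome-polymer particle to whose surface proteins adsorb, and MP stands for a membrane protein extract of dendritic cells. LMA and LMS were sampled later than LM and had further doses, and no group received LPPC/MP without antibody in that phase, so antibody, time and number of doses cannot be told apart in comparisons with LM. No source used here states that the libraries came from separate animals, so p-values measure the spread between these libraries.

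C-type lectins of this kind are surface receptors by which macrophages, neutrophils and dendritic cells sense sugars and lipids of microbes and remnants of dying cells. The activating members signal through tyrosine motifs that recruit the kinase Syk and the adaptor Card9: Clec4d, Clec4e and Clec4n borrow the motif from the Fc receptor gamma chain (gene Fcer1g), Clec5a, Trem1 and Cd300e borrow it from DAP12 (gene Tyrobp), and Clec7a carries its own. Clec4a2 and Clec12a carry inhibitory motifs that recruit phosphatases, and Clec10a takes up ligands with terminal galactose. In the spleen they are found mainly on macrophages, monocytes, neutrophils and dendritic cells.

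On the mouse genome build GRCm38, Clec4a2 (chromosome 6, from 123106428 to 123143999), Clec4n (123229843 to 123247021), Clec4d (123262111 to 123275265) and Clec4e (123281789 to 123289870, on the minus strand) lie side by side. Further along the same chromosome are Clec12a (129342691 to 129365303) and Clec7a (129461591 to 129472779, minus strand), and Clec5a lies apart (40574894 to 40585821, minus strand). Clec10a (70156197 to 70170834) and Cd300e (115051917 to 115062177, minus strand) are on chromosome 11, and Trem1 (48232768 to 48246924) is on chromosome 17. Clec4a2 belongs to a set of close copies (Clec4a1, Clec4a3, Clec4a4), between which reads can be shared, so its values are uncertain.

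Promoter windows of 300 bases were matched for 8 of the 10 genes in RefSeq (build GRCm38.p6), with 2 windows for Clec7a, and Clec4n and Clec10a were not matched. The windows of Clec4d, Clec4e, Trem1 and Cd300e are printed because the levels of Clec4d and Clec4e moved together and those of Trem1 and Cd300e had the largest log2 fold changes of the 10 genes in LMA against LMS. Capitals mark GAGGAA, the core bound by PU.1, and TTNNGNAA, a C/EBP pattern, on either strand, and no match overlaps another in these 4 windows.
Clec4d: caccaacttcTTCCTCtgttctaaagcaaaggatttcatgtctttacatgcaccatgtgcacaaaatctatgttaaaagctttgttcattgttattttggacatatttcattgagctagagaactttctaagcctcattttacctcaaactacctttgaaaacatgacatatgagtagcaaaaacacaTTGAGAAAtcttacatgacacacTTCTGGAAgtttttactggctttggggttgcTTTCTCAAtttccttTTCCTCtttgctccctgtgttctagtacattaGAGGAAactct
Clec4e: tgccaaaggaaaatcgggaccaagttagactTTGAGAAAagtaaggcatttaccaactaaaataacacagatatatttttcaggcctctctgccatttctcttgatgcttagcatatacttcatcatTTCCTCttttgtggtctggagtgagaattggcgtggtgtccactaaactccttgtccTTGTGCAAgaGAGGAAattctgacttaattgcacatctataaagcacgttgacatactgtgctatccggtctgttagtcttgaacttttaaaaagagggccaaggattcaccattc
Trem1: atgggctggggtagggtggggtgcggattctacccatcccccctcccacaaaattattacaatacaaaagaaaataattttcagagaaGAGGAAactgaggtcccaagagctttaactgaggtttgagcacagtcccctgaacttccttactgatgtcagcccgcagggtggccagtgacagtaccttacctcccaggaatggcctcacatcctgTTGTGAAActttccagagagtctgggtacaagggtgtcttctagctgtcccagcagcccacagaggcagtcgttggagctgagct
Cd300e: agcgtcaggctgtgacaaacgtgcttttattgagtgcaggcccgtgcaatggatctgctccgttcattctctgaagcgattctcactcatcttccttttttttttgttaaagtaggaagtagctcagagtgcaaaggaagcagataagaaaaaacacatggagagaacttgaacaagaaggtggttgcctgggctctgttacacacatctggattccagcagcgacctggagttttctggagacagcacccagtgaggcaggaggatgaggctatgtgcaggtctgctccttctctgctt
These are chr6:123261857-123262156 on the plus strand (Clec4d), chr6:123289822-123290121 on the minus strand (Clec4e), chr17:48232489-48232788 on the plus strand (Trem1) and chr11:115061990-115062289 on the minus strand (Cd300e). The Clec4d window held 3 matches to GAGGAA and 3 to TTNNGNAA, the Clec4e window 2 and 2, the Trem1 window 1 and 1, and the Cd300e window 0 of either. Of the 9 windows of these receptors, 7 held GAGGAA and 6 held TTNNGNAA, against 28.3% and 40.7% of all 32851 promoter windows. TGANTCA of AP-1 stood in 2 windows, those of Clec4a2 and Clec12a (7.81% of all), and the NF-kB pattern in 0 (50.8% of all). The 2 windows of Clec7a overlap almost completely. A match is a string of letters and not a measured binding site.

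Most libraries went against the label of female mice, and some libraries of N and LMS stood apart. Eif2s3y, a Y-linked gene, was between 31.0 and 43.0 FPKM (fragments per kilobase of gene, scaled to library size) in 14 libraries although all mice are labelled female, and had a value of 0 in the libraries N 1, N 2, LMS 2 and LMS 5. The 14 libraries were not alike in Xist, a transcript of the X chromosome. It was at 4.84 to 7.20 FPKM in LMA and 4.98 to 6.69 FPKM in LM. It was at 0.29 FPKM in N 3, at 1.49 to 2.69 FPKM in LMS 1, 3, 4 and 6, and at 48.1 to 59.9 FPKM in N 1, N 2, LMS 2 and LMS 5. Summed over each fixed marker list, these 4 libraries held 1430 to 1866 FPKM of B cell and 398 to 647 FPKM of T cell genes, against at most 339.9 and 120.3 FPKM in the other 14. The 8 macrophage genes summed to 265.9 to 316 FPKM in these 4 libraries and to 509 to 549 FPKM in the others, but did not move together. Cd68 was at 353 to 402 FPKM in LMA and LM, 269 to 302 FPKM in N 3 and LMS 1, 3, 4 and 6, and 30.9 to 34.4 FPKM in the 4 libraries. Csf1r was at 69.1 to 74.0 FPKM in LMA and LM, 177 to 193 FPKM in N 3 and LMS 1, 3, 4 and 6, and 39.2 to 53.2 FPKM in the 4 libraries, while Adgre1 followed the order of Cd68. C1qa, C1qb, C1qc, Mertk and Mrc1 were highest in the 4 libraries, C1qa at 61.3 to 68.9 FPKM there and at most 19.97 FPKM elsewhere. Neutrophil precursor genes summed to 640 to 874 FPKM in LMA and 466 to 551 FPKM in LM, against at most 129 FPKM in any N or LMS library. Erythroid genes summed to 1356 to 2630 FPKM in LMA and 4736 to 7062 FPKM in LM, so that LMA and LM also differed from each other without overlap. They summed to 2518 FPKM in N 1 but to 7.18e+04 to 8.34e+04 FPKM in N 2, LMS 2 and LMS 5. The 4 libraries without Y-linked transcripts were thus not alike either. N 3 held only 29.9 FPKM of B cell, 8.28 FPKM of T cell and 24.0 FPKM of mature neutrophil genes. LMA and LM held 205 to 340, 61.9 to 120 and 1044 to 2010 FPKM of these, so N 3 was unlike them although it has Y-linked transcripts. Comparisons with N or LMS were therefore made with all libraries, with only the libraries that have Y-linked transcripts, and with N 3 and LMS 1, 3, 4 and 6 left out, and a value with no set named is from all libraries. The last 2 sets were chosen after the data were seen. In bulk RNA, fewer cells of a type and less RNA per cell cannot be told apart. Depth was 5.21 to 7.92 gigabases of aligned sequence per library.

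Over all 18 libraries Clec4d had the highest level of the 10 genes in 14, namely all LMA and LM libraries, N 3 and LMS 1, 3, 4 and 6. In the 9 LMA and LM libraries the order was steady, with Clec4d highest, then Clec4e and then Clec12a. Clec5a and Cd300e followed, and changed places in LMA 2. Clec4n, Clec7a, Clec4a2, Clec10a and Trem1 made up the low end in these libraries, between 4.16 and 8.98 FPKM. In N 2, LMS 2 and LMS 5 the first place went to Clec4n, and in N 1 to Clec7a.

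**Figure D1:**
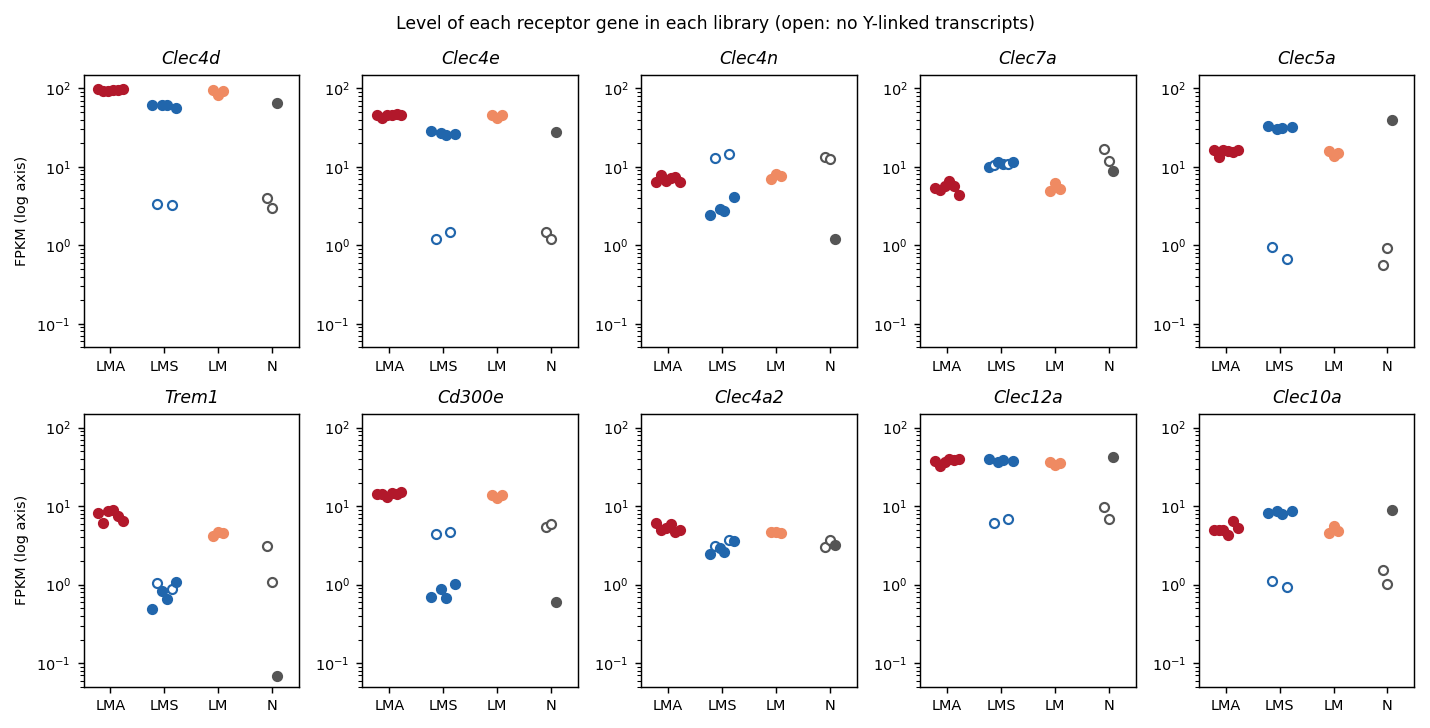
FPKM of each of the 10 genes (log axis) in every library of LMA, LMS, LM and N, one point per library, open where no Y-linked transcripts were present. LMA and LM points overlap in all panels but that of Trem1, where LMA is higher, while the open points of LMS and N lie far below the filled ones for Clec4d, Clec4e, Clec5a, Clec12a and Clec10a and above them for Clec4n and Cd300e.

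Among the receptors that signal through the Fc receptor gamma chain, Clec4d and Clec4e were high in every LMA and LM library. Clec4e encodes Mincle, a receptor for the mycobacterial cord factor, and Clec4d its partner MCL. Clec4d was at 93.1 FPKM in the lowest, 95.4 in the median and 98.6 in the highest LMA library, and at 96.6, 83.03 and 93.5 FPKM in the LM libraries. In LMS it was at 61.2, 60.5, 60.8 and 56.9 FPKM in LMS 1, 3, 4 and 6 and at 3.38 and 3.28 FPKM in LMS 2 and LMS 5, and in N at 3.97, 2.97 and 64.8 FPKM in N 1, 2 and 3. Every LMA and LM library was thus above every LMS and N library, and the libraries without Y-linked transcripts were far below the rest. Clec4e ran in parallel, with 42.0, 45.6 and 47.2 FPKM as lowest, median and highest in LMA. It was at 45.6, 42.2 and 45.5 FPKM in LM. It was at 25.7 to 28.6 FPKM in the 4 LMS libraries with Y-linked transcripts and at 1.19 and 1.48 FPKM in LMS 2 and LMS 5, and at 1.47, 1.19 and 28.1 FPKM in N 1, 2 and 3. As for Clec4d, the LMA and LM levels did not overlap those of LMS or N.

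Within a library Clec4d stood at a nearly fixed ratio to Clec4e. The log2 ratio of Clec4d to Clec4e lay between 1.01 and 1.15 in LMA, 0.98 and 1.08 in LM, 1.10 and 1.24 in N 3 and LMS 1, 3, 4 and 6, and 1.15 and 1.501 in the other 4 libraries. Across all libraries Clec4e spanned 39.7-fold and Clec4d 33.2-fold, while the log2 ratio moved between 0.98 and 1.501. In LMA against N, Clec4d differed by a log2 fold change of 3.26 (standard error, SE, 1.01; limma adjusted p = 0.0213) and Clec4e by 3.33 (SE 0.99, adjusted p = 0.0174). Neither passed without N 1 (adjusted p = 0.12 for Clec4d and 0.106 for Clec4e) or without N 2 (0.131 and 0.11). Among libraries with Y-linked transcripts only, the log2 fold changes were 0.56 for Clec4d and 0.68 for Clec4e (adjusted p = 6.8e-06 and 9.7e-07), and the values were 4.61 and 4.65 without N 3 and LMS 1, 3, 4 and 6. In LMA against LMS they were 0.67 and 0.74 in the first of these sets and 4.65 and 4.64 in the other. The rise in LMA held in both sets, with a far smaller size where only libraries with Y-linked transcripts were compared.

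Clec4n encodes Dectin-2, a receptor for fungal mannans that also needs the Fc receptor gamma chain. It did not follow its chromosomal neighbours. Clec4n was at 6.32, 6.93 and 7.84 FPKM in the lowest, median and highest LMA library and at 6.94, 8.21 and 7.59 FPKM in LM. In LMS it was at 13.05 and 14.7 FPKM in LMS 2 and LMS 5 and at 2.45, 2.87, 2.73 and 4.08 FPKM in LMS 1, 3, 4 and 6, and in N at 13.5, 12.5 and 1.204 FPKM in N 1, 2 and 3. LMA and LM thus lay between both kinds of LMS and N libraries, and the libraries lowest in Clec4d were highest in Clec4n. The log2 fold change in LMA against N was 0.14 (SE 0.62, adjusted p = 0.858) over all libraries, 2.13 (adjusted p = 3.9e-07) with only the libraries with Y-linked transcripts, and -0.85 (adjusted p = 4.1e-06) without N 3 and LMS 1, 3, 4 and 6. Its direction was therefore set by which N and LMS libraries were used.

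Clec7a encodes Dectin-1, the receptor for beta-glucans of fungal cell walls, and was the gene with lower levels in LMA and LM. It was at 4.41, 5.56 and 6.52 FPKM in the lowest, median and highest LMA library and at 4.95, 6.18 and 5.17 FPKM in LM. It was at 9.95, 10.9 and 11.6 FPKM as lowest, median and highest in LMS, and at 17.1, 11.9 and 8.82 FPKM in N. All LMA and LM libraries were below all LMS and N libraries, and in LMS the libraries with and without Y-linked transcripts had like levels. Clec7a fell in LMA against N by 1.09 on the log2 scale (SE 0.15, adjusted p = 6.4e-05) and in LMA against LMS by 0.93 (SE 0.12, adjusted p = 2.8e-05). It also fell in LM against N by 1.10 (adjusted p = 3.4e-04). In LMS against LM it was higher by 0.95 (SE 0.15, adjusted p = 3.1e-04). The LMA against N value was -0.65 with only the libraries with Y-linked transcripts and -1.32 without N 3 and LMS 1, 3, 4 and 6. The LMA against LMS value was -0.95 with only the libraries with Y-linked transcripts and -0.91 without N 3 and LMS 1, 3, 4 and 6.

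Of the receptors that use DAP12, Trem1 differed most between LMA and LM. TREM-1 amplifies inflammatory responses of neutrophils and monocytes. Trem1 was at 8.15, 6.13, 8.72, 8.98, 7.48 and 6.40 FPKM in the 6 LMA libraries, and at 4.16, 4.71 and 4.52 FPKM in LM. It was at 0.49, 1.04, 0.83, 0.66, 0.88 and 1.07 FPKM in LMS and at 3.08, 1.09 and 0.07 FPKM in N. The 4 groups fell into 3 steps that did not overlap, with LMA above LM, and LM above LMS and N. Trem1 rose in LMA against N by 2.45 on the log2 scale (SE 0.37, adjusted p = 1.2e-04), in LM against N by 1.74 (SE 0.42, adjusted p = 0.0072) and in LMA against LMS by 2.62 (SE 0.30, adjusted p = 6.2e-06). It fell in LMS against LM by 1.92 (SE 0.37, adjusted p = 0.0012). With only the libraries with Y-linked transcripts the log2 fold changes were 3.83 in LMA against N, 2.70 in LMA against LMS and -1.996 in LMS against LM, and 1.76, 2.47 and -1.77 in the same order without N 3 and LMS 1, 3, 4 and 6, all past the threshold. Within N the levels were widely spread, with a mean of 1.41 ± 1.53 FPKM (SD, n = 3) and N 3 as the lowest of all 18 libraries.

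LMA against LM gave a log2 fold change of 0.70 for Trem1 (SE 0.37, adjusted p = 1 over all genes). With the spread taken from these 2 groups alone the standard error was 0.12 and the adjusted p = 0.0363, where 0.419% of all genes passed. It was also past the threshold with only the libraries with Y-linked transcripts (limma adjusted p = 0.0494) and with sample weights (0.0077). No share of all genes is given for these 2 fits, so their calls are not read as a result about Trem1. Over the 22 fits of this difference the log2 fold change stayed between 0.65 and 0.79. Levels of neutrophil genes differed between the same libraries: mature neutrophil markers summed to 1482 to 2010 FPKM in LMA and 1044 to 1211 FPKM in LM, and precursor markers to 640 to 874 FPKM in LMA and 466 to 551 FPKM in LM. Their part in the Trem1 difference was not tested. Over the 9 LMA and LM libraries the genes most like Trem1 among 11456 were S100a9 (Pearson r = 0.990, Spearman rho = 0.967), Camp (0.990 and 0.967) and Retnlg (0.988 and 0.983), all 3 genes of neutrophils. In N 1, where Trem1 was at 3.08 FPKM, precursor markers summed to 5.94 FPKM, of which Ms4a3 was at 0. Mature neutrophil markers there summed to 316 FPKM, more than in N 3 or LMS 1, 3, 4 and 6 (at most 268 FPKM). They summed higher still in N 2, LMS 2 and LMS 5 (450, 408 and 433 FPKM). Trem1 was lower in these libraries than in N 1, at 1.09, 1.04 and 0.88 FPKM.

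**Figure D2:**
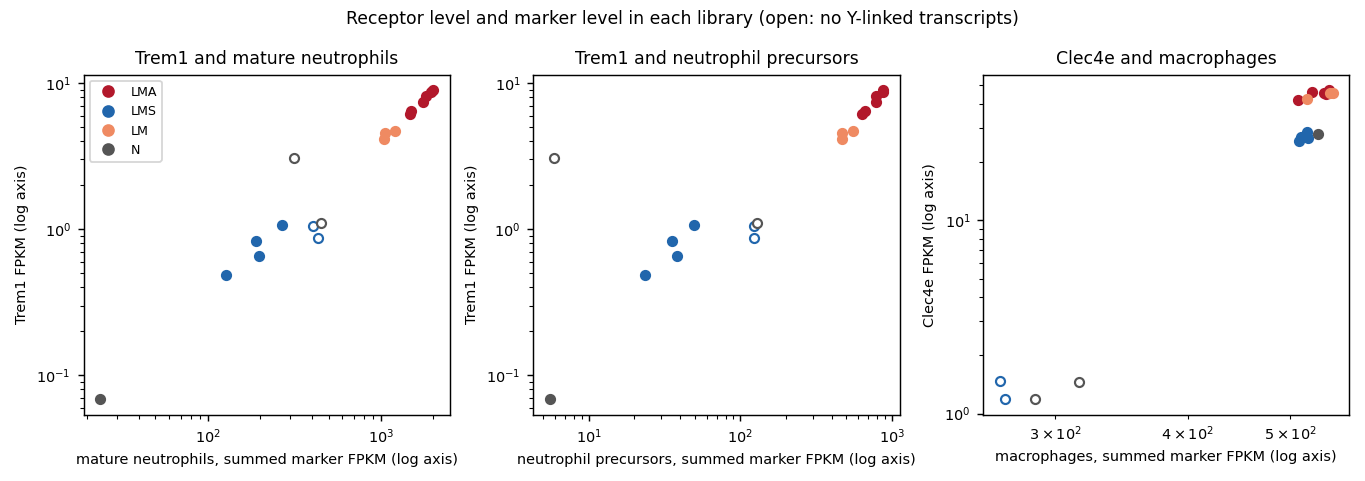
FPKM of Trem1 against the summed FPKM of mature neutrophil and of neutrophil precursor markers, and of Clec4e against macrophage markers (all log axes), one point per library, open where no Y-linked transcripts were present. Trem1 and neutrophil markers are highest in LMA and next in LM, N 1 lies apart with 3.08 FPKM of Trem1 at 5.94 FPKM of precursor markers, and N 3 and LMS 1, 3, 4 and 6 have a macrophage marker sum like that of LMA and LM, made of less Cd68 and more Csf1r, with less Clec4e.

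Cd300e encodes an activating receptor of monocytes. It was at 13.03, 14.3 and 15.2 FPKM in the lowest, median and highest LMA library and at 13.9, 12.9 and 13.7 FPKM in LM. In LMS it was at 4.46 and 4.68 FPKM in LMS 2 and LMS 5 and at 0.67 to 1.02 FPKM in LMS 1, 3, 4 and 6, and in N at 5.38, 5.84 and 0.60 FPKM in N 1, 2 and 3. LMA and LM were above every LMS and N library, and here the libraries without Y-linked transcripts were the higher ones of LMS and N. Cd300e rose in LMA against N by 2.09 on the log2 scale (SE 0.55, adjusted p = 0.0080) and in LMA against LMS by 2.84 (SE 0.45, adjusted p = 1.4e-04). It fell in LMS against LM by 2.76 (adjusted p = 0.0016). The sizes depended on the libraries used: LMA against N gave 3.75 with only the libraries with Y-linked transcripts and 1.27 without N 3 and LMS 1, 3, 4 and 6. LMA against LMS gave 3.49 and 1.54, and LMS against LM -3.42 and -1.46, in the same 2 sets, all past the threshold.

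Clec5a encodes MDL-1, which binds dengue virus. Among the N and LMS libraries it was high where Cd300e was low. It was at 13.4, 16.0 and 16.6 FPKM in the lowest, median and highest LMA library and at 15.8, 13.9 and 15.2 FPKM in LM. It was at 30.6 to 33.2 FPKM in LMS 1, 3, 4 and 6, at 0.94 and 0.68 FPKM in LMS 2 and LMS 5, and at 0.57, 0.92 and 39.4 FPKM in N 1, 2 and 3. LMA and LM thus lay between these extremes. The log2 fold change in LMA against N was 2.04 (SE 1.21, adjusted p = 0.192), -1.31 with only the libraries with Y-linked transcripts (adjusted p = 8.9e-08) and 3.71 without N 3 and LMS 1, 3, 4 and 6 (adjusted p = 1.2e-10). So Clec5a was called in opposite directions in the 2 sets.

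Of the receptors with inhibitory motifs, Clec4a2, which encodes DCIR of dendritic cells and macrophages, had the narrowest span of the 10 genes, 2.54-fold over all libraries. It was at 4.74, 5.13 and 6.17 FPKM in the lowest, median and highest LMA library and at 4.74, 4.72 and 4.49 FPKM in LM. It was at 2.43, 3.04 and 3.71 FPKM in LMS and at 2.97, 3.69 and 3.23 FPKM in N. Although small, the difference left no overlap of LMA or LM with LMS or N. Clec4a2 rose in LMA against N by 0.62 on the log2 scale (SE 0.12, adjusted p = 0.0011) and in LMA against LMS by 0.71 (SE 0.10, adjusted p = 4.0e-05), and the values in both sets of libraries lay between 0.57 and 0.78. Clec12a encodes MICL, which senses uric acid crystals. It was at 32.9, 37.8 and 40.2 FPKM in the lowest, median and highest LMA library, at 36.3, 33.6 and 35.6 FPKM in LM, at 36.9 to 39.6 FPKM in LMS 1, 3, 4 and 6, and at 42.5 FPKM in N 3. It was at 6.10 and 6.92 FPKM in LMS 2 and LMS 5 and at 9.74 and 6.80 FPKM in N 1 and N 2. LMA, LM and the libraries of LMS and N with Y-linked transcripts thus lay within 32.9 to 42.5 FPKM of Clec12a. Among them the log2 fold change in LMA against LMS was -0.04 (SE 0.05, limma adjusted p = 0.526). It was -0.18 in LMA against N and -0.27 in LM against N, where N 3 was the only N library. N 3 was above every LMA and LM library.

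Clec10a encodes MGL1, which takes up ligands with galactose or related sugars. It was at 4.25, 5.01 and 6.47 FPKM in the lowest, median and highest LMA library and at 4.61, 5.59 and 4.85 FPKM in LM. It was at 7.84 to 8.68 FPKM in LMS 1, 3, 4 and 6, at 1.12 and 0.93 FPKM in LMS 2 and LMS 5, and at 1.53, 1.03 and 8.87 FPKM in N 1, 2 and 3. As for Clec5a, LMA and LM lay between the extremes. The log2 fold change in LMA against N was 0.87 (SE 0.64, adjusted p = 0.288), -0.74 with only the libraries with Y-linked transcripts (adjusted p = 6.2e-04) and 1.67 without N 3 and LMS 1, 3, 4 and 6 (adjusted p = 4.2e-07).

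Counted together, 5 of the 10 genes rose and 1 fell in LMA against N, where 13.6% of all genes tested rose and 21.9% fell. The 5 were Clec4d, Clec4e, Trem1, Cd300e and Clec4a2, and the 1 was Clec7a. The LMA libraries lay above all N libraries for the same 5 and below them for Clec7a, which was so for 11.8% and 18.5% of all genes. In LM against N, 4 rose and 1 fell, against 9.22% and 15.9% of all genes, with Clec4d not passing (log2 fold change 3.18, adjusted p = 0.0578). Without overlap there were again 5 above and 1 below (13.2% and 20.4% of all genes). The LM count fell to 2 without LM 1, LM 2 or LM 3 (15.9%, 17.2% and 15.5% of all genes passed) and to 3 without N 1 (17.9%), was 7 without N 3 (58.2%), and was 0 when only LM and N were fitted (0.48%).

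In LMA against LMS, 3 of the 10 rose and 1 fell, against 11.3% and 19.3% of all genes: Trem1, Cd300e and Clec4a2 rose and Clec7a fell. Clec4d and Clec4e had log2 fold changes of 1.996 and 2.04 that did not pass (adjusted p = 0.0811 and 0.0693), although all LMA libraries lay above all LMS libraries. The groups did not overlap for 5 above and 1 below, against 12.4% and 17.5% of all genes. In LMS against LM, Clec7a rose and Trem1, Cd300e and Clec4a2 fell (1 and 3 genes, against 13.3% and 7.96% of all genes), with 1 gene above and 5 below without overlap (19.2% and 13.6% of all genes). These 4 comparisons share their libraries and are not independent of each other.

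The 2 sets of libraries gave more calls, for these receptors and for all genes. With only the libraries with Y-linked transcripts, 9 of the 10 passed in LMA against N (61.6% of all genes), 10 in LM against N (60.2%), 9 in LMA against LMS (72% of all genes) and 9 in LMS against LM (68.1%). Without N 3 and LMS 1, 3, 4 and 6 all 10 passed in each of these comparisons, where 79.9%, 76.8%, 78.8% and 75.9% of all genes did. Most genes passed in these fits, so that only the directions of the receptors are read from them. Clec4d, Clec4e, Trem1, Cd300e and Clec4a2 were higher and Clec7a lower in LMA and in LM in both sets, Clec4n, Clec5a and Clec10a were called in opposite directions, and Clec12a was higher in LMA and LM only without N 3 and LMS 1, 3, 4 and 6. In the first set N 3 was the only N library, so its spread was taken from the other groups.

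**Figure D3:**
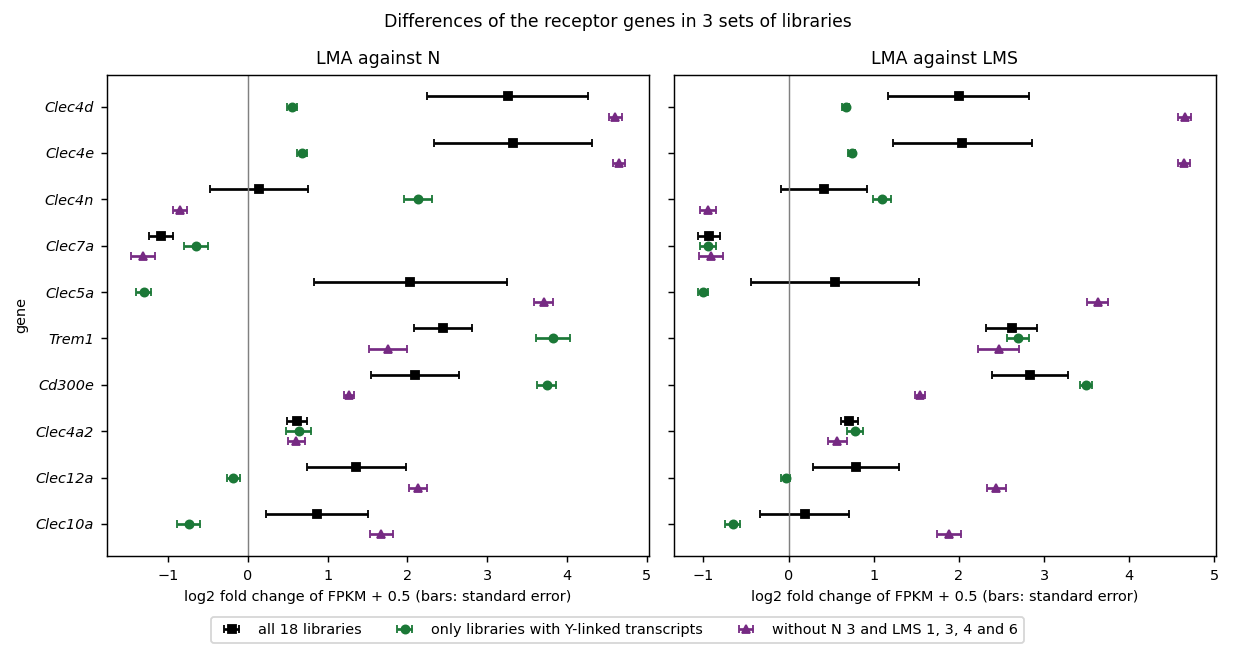
Log2 fold changes of FPKM + 0.5 with standard errors for the 10 genes in LMA against N and in LMA against LMS, from all 18 libraries (squares), from the libraries with Y-linked transcripts (circles) and without N 3 and LMS 1, 3, 4 and 6 (triangles). Clec7a lies left of 0 and Clec4d, Clec4e, Trem1, Cd300e and Clec4a2 lie right of 0 for all 3 symbols, while Clec4n, Clec5a and Clec10a change sides.

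LMS against N gave 0 of 10 calls in limma (0% of all genes), with 0 of the 10 and 507 of all genes at an unadjusted p under 0.05. The largest differences were for Clec5a (log2 fold change 1.497, SE 1.21) and Clec4e (1.29, SE 0.99). Without N 3, the N library with the highest Clec4d, 5 of the 10 passed, where 33.6% of all genes did: Clec4e and Clec5a rose by 2.61 and 3.17, and Clec7a, Trem1 and Cd300e fell by 0.38, 0.87 and 1.57 on the log2 scale. Sample weights gave 7 calls, with 59.1% of all genes called. Among the libraries with Y-linked transcripts, where N 3 is the only N library, the log2 fold changes of Clec4n and Trem1 were 1.03 and 1.13.

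LMA against LM also gave 0 of 10 calls (0% of all genes), with 0 of the 10 and 133 of all genes at an unadjusted p under 0.05. Trem1 alone had no overlap, with all LMA libraries above all LM libraries, which 2.43% of all genes showed. The other 9 genes differed by at most 0.17 on the log2 scale. With only these 2 groups fitted their standard errors were between 0.04 and 0.11, Clec4a2 being the farthest from 0 (log2 fold change 0.17, SE 0.08, adjusted p = 0.469) and Clec7a the nearest (0.01, SE 0.11, adjusted p = 0.983). The paper lists Trem1 and Cd300e as higher after 2 anti-CD28 treatments than in LM, while LMA here pools 1 and 2. The FPKM it prints for both genes after 2 treatments equal the means of LMA 4 to 6, a split that the labels do not give. Cd300e was at 14.3 to 15.2 FPKM in LMA 4 to 6, above every LM library (12.9 to 13.9 FPKM). In LMA 1 to 3 it was at 13.03 to 14.2 FPKM, which overlapped LM. This split was not tested.

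Levels were also set against those of the shared adaptors in the same library. Tyrobp was at 207 to 221 FPKM in LMA, 212 to 224 FPKM in LM, 263 to 288 FPKM in N 3 and LMS 1, 3, 4 and 6, and 62.5 to 115 FPKM in N 1, N 2, LMS 2 and LMS 5. Relative to Tyrobp, Clec4e was at -2.30 to -2.17 on the log2 scale in LMA, -2.34 to -2.21 in LM, -3.39 to -3.22 in N 3 and LMS 1, 3, 4 and 6, and -6.29 to -5.40 in the other 4 libraries. The 3 levels of Clec4e per unit of Tyrobp did not overlap. Relative to Fcer1g, the adaptor that Clec4e uses, they did in part: Clec4e was at -1.93 to -1.76 in LMA, -1.92 to -1.86 in LM and -1.89 to -1.71 in N 3 and LMS 1, 3, 4 and 6, which overlap, and at -5.29 to -4.07 in the other 4 libraries. Clec4d over Fcer1g was slightly higher in N 3 and LMS 1, 3, 4 and 6 (-0.68 to -0.57) than in LMA (-0.84 to -0.75) or LM (-0.94 to -0.80). The log2 ratio of Clec4e to Clec12a likewise lay at 0.18 to 0.35 in LMA and 0.33 to 0.35 in LM, at -0.60 to -0.46 in N 3 and LMS 1, 3, 4 and 6, and at -2.73 to -2.23 in the other 4.

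Cd300e behaved differently when taken per unit of Tyrobp. Its log2 ratio was -3.996 to -3.87 in LMA and -4.05 to -3.92 in LM, and -4.42 to -3.57 in N 1, N 2, LMS 2 and LMS 5, so that these overlapped. In N 3 and LMS 1, 3, 4 and 6 it was -8.91 to -8.06. The higher FPKM of Cd300e in LMA than in N 1, N 2, LMS 2 and LMS 5 thus came with a higher level of Tyrobp in the same libraries, while the low Cd300e of the other 5 came with the highest Tyrobp. Per unit of Fcer1g, Cd300e was lower in LMA (-3.59 to -3.49) and LM (-3.63 to -3.59) than in N 1, N 2, LMS 2 and LMS 5 (-3.42 to -2.40). Clec7a per unit of Tyrobp was lowest in LMA (-5.65 to -5.07) and LM (-5.44 to -5.11), was -5.03 to -4.55 in N 3 and LMS 1, 3, 4 and 6, and was -2.75 to -2.51 in the other 4 libraries. Trem1 per unit of Tyrobp was -5.11 to -4.58 in LMA, above LM (-5.67 to -5.50) and above all LMS and N libraries (-12.0 to -5.22). Per unit of Fcer1g, LMA (-4.75 to -4.17) overlapped N 1, N 2, LMS 2 and LMS 5 (-4.85 to -4.22).

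**Figure D4:**
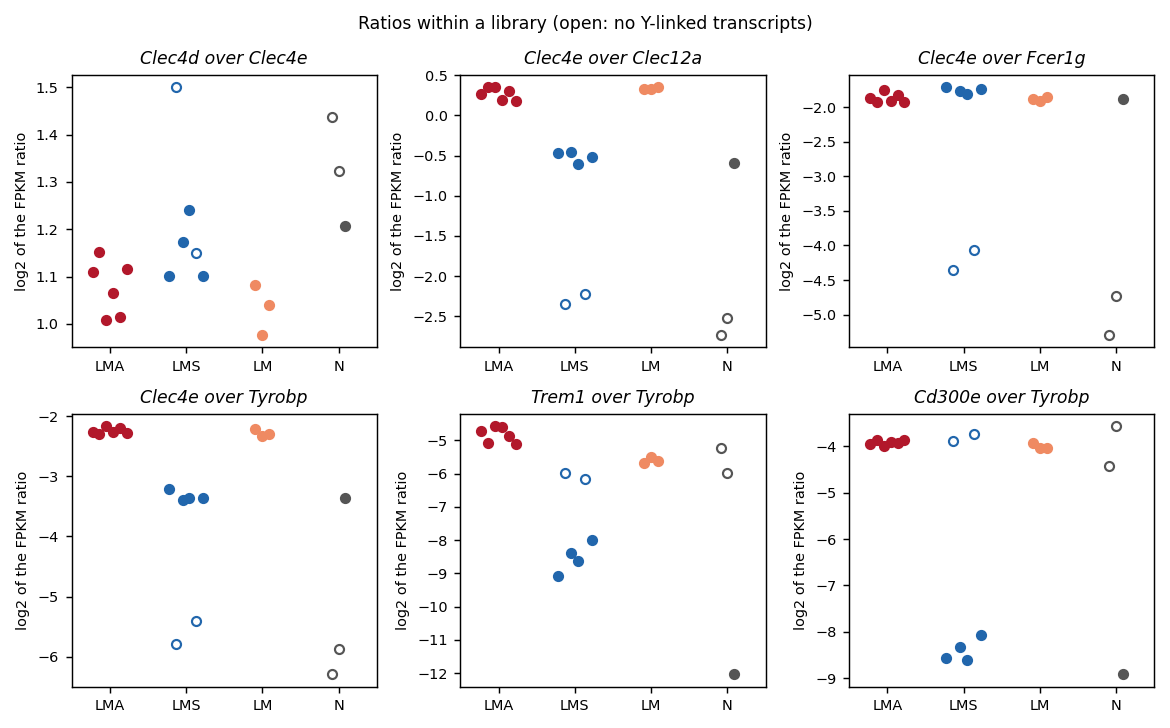
Log2 ratios of FPKM within a library for Clec4d over Clec4e, Clec4e over Clec12a and over Fcer1g, and Clec4e, Trem1 and Cd300e over Tyrobp, one point per library of LMA, LMS, LM and N, open where no Y-linked transcripts were present. Clec4d over Clec4e spans only 0.98 to 1.501, Clec4e over Tyrobp falls into 3 levels, of which the upper pair overlap over Fcer1g, and Cd300e over Tyrobp is as high in the open points as in LMA and LM.

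Of 15 genes by which these receptors signal, all tested, 2 rose and 3 fell in LMA against N, near the 13.6% and 21.9% of all genes, with a median log2 fold change of -0.12 beside -0.13 for all genes. Fcer1g, the gamma chain, was at 157 to 173 FPKM in LMA and 159 to 168 FPKM in LM, above the 24.3 to 93.4 FPKM of LMS and the 31.6 to 104 FPKM of N, and rose in LMA against N by 1.52 on the log2 scale (SE 0.44, adjusted p = 0.0157). Vav1, an exchange factor downstream of Syk, rose by 0.80 (adjusted p = 0.0011), and both genes were also called higher in both sets of libraries. The phosphatase gene Ptpn11, the phospholipase gene Plcg2 and the lipid phosphatase gene Inpp5d fell by 0.29, 0.49 and 0.41. With only the libraries with Y-linked transcripts Ptpn11 was still lower (-0.35), while Plcg2 was at -0.01 (adjusted p = 0.847) and Inpp5d at 0.0015 (adjusted p = 0.985). For Tyrobp the difference in this comparison was 0.70 (adjusted p = 0.278), with -0.42 and 1.26 in the 2 sets. Syk was at 24.7 to 30.7 FPKM in LMA, at 24.1 to 29.3 FPKM in LM, at 6.68 to 15.3 FPKM in N 3 and LMS 1, 3, 4 and 6, and at 90.5 to 104 FPKM in N 1, N 2, LMS 2 and LMS 5, with no call (log2 fold change -0.56, adjusted p = 0.582) and opposite calls in the 2 sets (1.98 and -1.83). Card9 was at 12.8 to 18.8 FPKM in LMA and 14.4 to 17.1 FPKM in LM, at 15.7 to 22.3 FPKM in N 3 and LMS 1, 3, 4 and 6, and at 1.72 to 3.63 FPKM in the other 4 (log2 fold change 1.5, adjusted p = 0.129). Among libraries with Y-linked transcripts 8 of the 15 rose and 2 fell in LMA against N, where 25.6% and 36% of all genes did. Without N 3 and LMS 1, 3, 4 and 6 the counts were 4 and 9, with 35.6% and 44.2% of all genes.

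Of 12 cytokine and early response genes downstream, 9 were tested, and 7 rose and 0 fell in LMA against N, against 13.6% and 21.9% of all genes (median log2 fold change 1.82, beside -0.13 for all genes). Il10, an anti-inflammatory cytokine gene, was at 16.2 to 18.4 FPKM in LMA and 15.9 to 16.5 FPKM in LM, against 0.17 to 0.45 FPKM in LMS and 0.29 to 0.50 FPKM in N, and rose by 4.31 on the log2 scale in LMA against N (adjusted p = 8.0e-14). Il6 rose by 1.52 (adjusted p = 6.4e-05), and Ptgs2, Ccl3, Cxcl2, Tnf and Egr2 also rose. All 7 were called higher in both sets of libraries, Tnf by 0.33 and 2.57. The other 2 tested genes, Il1b and Egr3, were not called (log2 fold changes -0.13 and -0.83, limma adjusted p = 0.869 and 0.384). Their values were 2.43 and 1.51 with only the libraries with Y-linked transcripts. Without N 3 and LMS 1, 3, 4 and 6 these 2 were called lower, as 44.2% of all genes were. Il1b was at 12.6 to 18.4 FPKM in LMA, 16.3 to 36.7 FPKM in LMS and 2.49 to 51.6 FPKM in N. In LMA against LMS 6 of the 9 rose and 0 fell (11.3% and 19.3% of all genes), and in LMS against LM 0 rose and 5 fell (13.3% and 7.96%). Among the ligands, Pglyrp1, whose product activates TREM-1, was at 22.3 to 31.5 FPKM in LMA and 15.6 to 20.7 FPKM in LM, with no overlap, and at 2.20 to 22.01 FPKM in LMS and 0.21 to 25.8 FPKM in N (log2 fold change in LMA against N 1.90, adjusted p = 0.119, with 5.30 and 0.21 in the 2 sets). Sap130, the nuclear ligand of Mincle, was at 11.9 to 13.2 FPKM in LMA, 11.1 to 12.1 FPKM in LMS, 11.4 to 11.8 FPKM in LM and 12.3 to 13.4 FPKM in N.

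Close relatives of the 10 receptors moved unequally. In LMA against N 13.6% of all genes tested rose and 21.9% fell, and single calls in lists this short are not read as differing from that. Next to Clec4a2 on chromosome 6, Clec4a3 was at 15.9 to 22.6 FPKM in LMA and 18.7 to 19.8 FPKM in LM, against 5.603 to 10.4 FPKM in LMS and 3.97 to 13.1 FPKM in N, and rose in LMA against N by 1.16 on the log2 scale (adjusted p = 0.0047). It was the 1 of 4 tested neighbours of the Clec4 cluster that passed, and Clec4a1, at 15.3 to 16.5 FPKM in LMA and at most 10.7 FPKM in any LMS or N library, missed the threshold (log2 fold change 1.80, adjusted p = 0.0501). Of 5 other TREM receptors 1 rose and 0 fell: Trem3, which also pairs with DAP12, was at 6.997 to 10.4 FPKM in LMA and 6.70 to 8.17 FPKM in LM, against 2.31 to 3.38 FPKM in LMS and 2.12 to 2.53 FPKM in N (log2 fold change in LMA against N 1.80, adjusted p = 9.7e-08). Trem2 changed direction with the libraries used, at 4.10 over all libraries and -0.61 with only those that have Y-linked transcripts. Of 7 other CD300 receptors 4 were tested, and the inhibitory Cd300a fell, at 3.62 to 4.09 FPKM in LMA and 3.62 to 4.11 FPKM in LM, against 6.87 to 11.9 FPKM in LMS and 7.04 to 11.2 FPKM in N (log2 fold change in LMA against N -1.08, adjusted p = 1.7e-04). None of 3 other galactose-type lectins passed the filter on low values. Clec12b, Clec1a, Clec1b, Clec9a, Clec2d and Olr1, near Clec7a, gave 3 tested genes, of which 0 rose and 0 fell in LMA against N by limma.

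The other members except Cd300e had as nearest genes over the 9 LMA and LM libraries, by Pearson r, genes of various kinds. These were Uba1, Acly and Espl1 for Clec4d (0.972, 0.957 and 0.954), Tbpl1, Sgsm3 and Ssfa2 for Clec4e (0.968, 0.967 and 0.959), and B4galnt1, Pop7 and Cd302 for Clec4n (0.959, 0.952 and 0.939). For Clec7a they were Med6, Kif21b and Mcmbp (0.963, 0.928 and 0.909), for Clec5a Cbx5, Tpst1 and Gna13 (0.970, 0.957 and 0.952), and for Clec12a Ttc37, Ahcyl1 and Haus6 (0.982, 0.978 and 0.970). For Clec4a2 they were Ccl6, Tmem41a and Crcp (0.934, 0.933 and 0.928) and for Clec10a Kbtbd4, Dennd6a and Zfp72 (0.920, 0.910 and 0.893). The Spearman rho of these 24 pairs lay between 0.750 and 0.967. Each pair is the closest of 11456 genes over 9 points, in which LMA and LM differ as groups and depth differs by library.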

How the data were processed

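RNA sequencing of 18 splenocyte libraries on a NovaSeq instrument gave 1 table per library, without pooling of replicates. The authors deposited FPKM per gene, normalized to gene length and library size, and only this column entered the tests. They also deposited a coverage signal per gene, from which with FPKM the aligned sequence per library was obtained, and a column headed TPM, treated here as a score because the assembled loci alone already make up the full scale in each library and the reference genes, which share their reads, are listed besides. The submitters' processing notes name the build mm10 and GATK 4.2, while neither aligner nor quantifier is given in the sources used here. The sample protocols describe melanoma tumours and other treatments, while the tissue and treatment fields, used for grouping, give spleen and the 4 groups. The labels do not tell 1 modulation from 2.

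Of 47729 reference genes, 47310 had a GENCODE M21 type and 21706 were protein-coding. Clec7a and 8 other genes, 9 in all, typed by GENCODE as polymorphic pseudogenes were kept because RefSeq types them as coding. The 11457 whose FPKM averaged at least 0.5 entered limma 3.58.1 in R 4.3.3 (lmFit, eBayes with a trend) on log2(FPKM + 0.5) of all 18 libraries with group as the single factor. Benjamini-Hochberg adjustment ran over all genes within each comparison, with a threshold of 0.05. Fold changes of low genes are understated on this scale. The tables hold no counts, so no counting intervals were made. Simulated data with known changes were used to test the fit. Levels, ratios and correlations were computed with Python 3.11.15, numpy 2.4.6, pandas 2.3.3 and scipy 1.17.1, and drawn with matplotlib 3.10.9.

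The 10 genes, the marker, signalling and relative lists and the tests were chosen with earlier results of these data known. All 10 genes are named. Of each other list up to 6 genes with the smallest adjusted p are named, with Fcer1g, Tyrobp, Syk and Card9 always, and for each of the 10 the 3 genes with the highest Pearson r of log2(FPKM + 0.5) over the 9 LMA and LM libraries, except that those of Cd300e are not reported here. Clec4a1, the ligand genes, the genes near Clec7a and the sex-linked genes were named besides, after their values were seen. Alternatives were pseudocounts of 0.1 and 1, no filter or a mean of at least 2 FPKM, the TPM column, scaling by the median of ratios, fits of the compared groups alone, sample weights (whose iterations stopped before full convergence), a replicate block, leaving out each library in turn and, added after the data were seen, the 2 sets of libraries and protein-coding genes by GENCODE alone.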

Additional observations from a re-analysis of the deposited data

Results flagged for a closer look

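Of 20 groups of 6 libraries examined, the 10 genes in LMA and in LMS, 1 had a library far from the others. Clec5a was at 13.4 FPKM in LMA 2, and the next lowest LMA library was at 15.6 FPKM. Chance flags about 1 in 20 groups by this measure. The split of LMS into libraries with and without Y-linked transcripts is not caught by it, since LMS 2 and LMS 5 lie close to each other.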

How the results depend on the processing

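Of the 10 genes, the number past the threshold was 6 in LMA against N, then 5 for LM against N and 0 for LMS against N, 0 in LMA against LM, 4 in LMS against LM and 4 in LMA against LMS. Leaving out 1 library at a time gave 4 to 9, 2 to 7, 0 to 5, 0 to 0, 4 to 4 and 4 to 4 in the same order. Fits of the 2 groups alone gave 0 in LM against N and 1 in LMA against LM. Sample weights gave 8 in LM against N, 7 in LMS against N (59.1% of all genes), 1 in LMA against LM, 9 in LMS against LM and 9 in LMA against LMS. For the other fits with sample weights no share of all genes is given. The same holds for LMA against N with 1 library left out. These counts are therefore not read as a result about the receptors. With only the libraries with Y-linked transcripts the number was 1 in LMA against LM, 9 in LMS against LM and 9 in LMA against LMS. For LMA against LM in this set no share of all genes is given, so that count is likewise not read as a result. Without N 3 and LMS 1, 3, 4 and 6 the number was 10 for each of LMA and LM set against N, for LMS against LM and for LMA against LMS.

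Some log2 fold changes turned round. With only the libraries with Y-linked transcripts these were Clec5a (-1.31 in LMA against N, then -1.37 for LM against N, 1.06 in LMS against LM and -1.003 in LMA against LMS), Clec10a (-0.74, -0.77, 0.69 and -0.66 in the same comparisons), Clec12a in LM against N (-0.27), and Clec4n and Trem1 in LMS against N (1.03 and 1.13). Without N 3 and LMS 1, 3, 4 and 6 Clec4n turned in LMA against N (-0.85), LM against N (-0.74), LMS against LM (0.83) and LMA against LMS (-0.94). Sample weights turned Clec5a and Clec10a in LMS against LM (1.01 and 0.70) and in LMA against LMS (-0.96 and -0.64). The cause was not tested.

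Under the remaining alternatives 1037 of the values of single genes kept their direction and side of the threshold, 25 no longer passed and 12 newly passed. Clec4e in LM against N did not pass without the filter (adjusted p = 0.0698) or with the TPM column (0.0553). The median over all genes shifted by 0.11 (LMA against N) and 0.10 (LMA against LMS) on the log2 scale with the TPM column, and by 0.11 (LMA against N) after scaling by the median of ratios, and no receptor changed direction with either. Replicate numbers did not pair the libraries, as correlations of same-numbered deviations ran between -0.642 and 0.906 and the labels name no shared animal or day. In LMS against LM, where all 3 correlations were above 0.1, the replicate block also gave 4 genes. With the replicate block the number was 4 in LM against N, where Clec4a2 no longer passed (adjusted p = 0.0739), and the other 5 numbers were 6, 0, 0, 4 and 4. Precision is limited by N and LM with 3 libraries each and by the unlike libraries within N and LMS, and depth by gene is unknown without counts.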
